A study of Bos taurus with 8 samples.

Results

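Chromosome 3 carries 234 of the 10249 non-control probes of the array, chosen because the probe annotation places them there on the cattle assembly Btau_3.1. Divided wherever probe starts lay over 20000 bp apart, they form 3 tiled loci and a pair of probes that belongs to none. The first locus, called the 15.4 Mb locus below, has 55 probes at chr3:15409344-15434722 and spans 25378 bp. The second, the 85.6 Mb locus, has 73 probes at chr3:85612388-85663320 and spans 50932 bp. The third, the 125.3 Mb locus, has 104 probes at chr3:125295836-125361768 and spans 65932 bp. The pair outside the loci starts at 85693522 and 85696179. Median distances between neighbouring probe starts were 348.5, 376 and 433 bp in the 3 loci, and the largest untiled gap, in the 85.6 Mb locus, was 10062 bp. No annotation of this assembly was at hand, so genes, exons and introns at these positions were not analysed here and the loci are named by position.

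The tissue was the hypothalamic arcuate nucleus of 8 female cattle at 8.5 months of age, with 1 array per heifer. The 4 high-gain heifers (1 to 4) had been fed since 4.5 months for a target gain of 1 kg per day, and the 4 low-gain heifers (5 to 8) for 0.5 kg per day. Methylated DNA was enriched by means of a methyl-CpG binding domain (MBD) protein and hybridised with the total (input) DNA of the same heifer. The tissue is a mixture of cell types, and methylation in a given cell type cannot be told apart from the share of that cell type in the sample. DNA carries no expressed markers, so the dissection could not be checked against markers of the arcuate nucleus.

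In mammals, DNA methylation lies mostly on cytosines that precede guanines (CpG), where it is copied at each cell division. Proteins with a methyl-CpG binding domain hold such DNA, and a capture based on them gains fragments that are both methylated and rich in CpG. A fragment with few CpG sites can therefore give a low ratio at any methylation level. The arcuate nucleus contains neurons that sense nutrient and fat-store signals and take part in the control of feeding and of puberty, which is the background of comparing feeding schedules here.

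Values are log2(enriched/input) of the processed signals after subtraction of the array median, so 0 is the median probe and not an absence of methylation. Low-gain heifer 5 stood apart from its group. Across the chromosome 3 probes, low-gain heifers 6, 7 and 8 correlated with each other at r = 0.462 to 0.556, and low-gain heifer 5 with them at only 0.134 to 0.199. High-gain heifers correlated with each other at -0.02 to 0.268, and low-gain heifer 5 with high-gain heifers at 0.0895 to 0.298. These correlations are over probes, which are not replicates, and they carry the mean level and brightness of each probe. Arrays also differed in spread. The interquartile range of the chromosome 3 ratios was 0.79, 0.94, 1.68 and 2.21 in high-gain heifers 1 to 4. In low-gain heifers 5 to 8 it was 1.13, 2.14, 1.72 and 2.31. The rest of the array had 0.76, 0.94, 1.43 and 2.14, against 1.18, 2.10, 1.87 and 2.37. The part of this spread in the position of low-gain heifer 5 or of slide row 1 was not tested. The enriched signal was well above background at 67.1%, 73.9%, 65.0% and 71.4% of chromosome 3 probes in high-gain heifers 1 to 4, against 65.0%, 59.8%, 64.1% and 44.9% in low-gain heifers 5 to 8. High-gain heifers averaged 69.3% ± 4.06 and low-gain heifers 58.4% ± 9.32 (SD, n = 4 each), a difference of 10.9 percentage points (exact permutation test, two-sided, p = 0.0571, adjusted p = 0.343 over 6 measures). The rest of the array showed 73.9% on high-gain arrays and 62.4% on low-gain arrays, a difference of 11.5 percentage points. Of the 234 probes, 92 had an enriched signal well above background on all 8 arrays and 34 on none. The number of arrays limits the precision of every value here.

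The 85.6 Mb locus was the only one of the 3 whose level passed the test against the median probe, below which it lay. Its mean log2 ratio was -0.02, 0.18, -0.38 and -0.71 in high-gain heifers 1 to 4, and -0.08, -0.77, -0.45 and -0.61 in low-gain heifers 5 to 8. It was below 0 on 7 of 8 arrays, high-gain heifer 2 being the exception. Over both groups its level was -0.35 with a standard error of 0.098 (limma against 0, adjusted p = 0.0177), the 10th lowest of the 97 tiled loci of the array. Levels other than 0 were common: 40 of 97 loci (41.2%) passed the same test, 33 of them below 0, and the median of all loci was -0.07. The call was lost on slide row 1 alone, which holds high-gain heifers 1 and 2 and low-gain heifers 5 and 6 (level -0.17, limma adjusted p = 0.401), and held on row 2 alone (level -0.54, limma adjusted p = 7.77e-05). It was also lost without high-gain heifer 3 or without low-gain heifer 6 or 8 (limma adjusted p = 0.0667, 0.0577 and 0.0504).

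Set against the other loci on the same arrays, the 85.6 Mb locus lay lower on 6 of 8 arrays in both comparisons. It was below the 15.4 Mb locus by a mean of -0.38 ± 0.47 (SD, n = 8; exact sign-permutation test, p = 0.0859) and differed from the 125.3 Mb locus by -0.36 ± 0.38 (SD, n = 8; exact sign-permutation test, p = 0.0547). Adjusted over the 3 pairs of loci, both p-values were 0.129, so neither difference passed. The 125.3 Mb and 15.4 Mb loci differed by -0.03 ± 0.14 (SD, n = 8; exact sign-permutation test, p = 0.609). The smallest p that 8 arrays allow in this test is 0.0078. In the high-gain arrays the 85.6 Mb locus differed from the 15.4 Mb locus by 0.07, 0.25, -0.16 and -0.97, against -0.05, -0.87, -0.58 and -0.77 in the low-gain arrays, and the groups overlapped (difference 0.37, exact permutation p = 0.343).

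**Figure D1:**
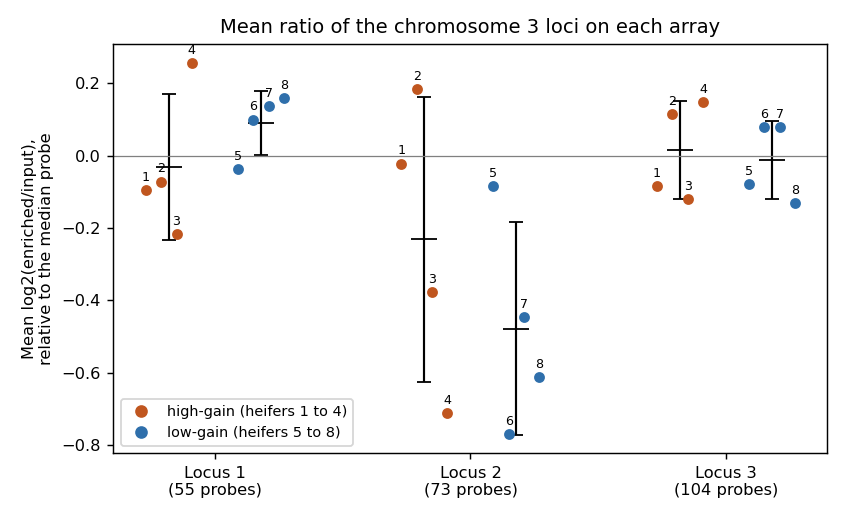
Mean log2(enriched/input) of the 3 chromosome 3 loci (locus 1, 15.4 Mb; locus 2, 85.6 Mb; locus 3, 125.3 Mb), high-gain arrays left and low-gain arrays right, with the heifer number above each point and the mean and SD in black. The groups overlap at every locus, and at locus 2 all arrays but high-gain heifer 2 lie below 0.

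No difference between the feeding groups passed the threshold at any of the 3 loci. At the 85.6 Mb locus the level was -0.23 ± 0.39 on the high-gain arrays and -0.48 ± 0.29 on the low-gain arrays (SD, n = 4 each). The groups differed by 0.25, with SE 0.20 and a 95% interval of -0.18 to 0.67 (limma, adjusted p = 0.531). Within slide row 1 the difference was 0.51 and within row 2 it was -0.01. It was 0.11, 0.41, 0.38 and 0.15 without high-gain heifer 2, high-gain heifer 4, low-gain heifer 5 and low-gain heifer 6, and 0.72 and 0.75 over probes above background in the input or in both channels, with no call in any of these. With arrays weighted by their agreement with the fit, the difference was 0.52 and passed (limma, adjusted p = 0.0172). The same weights raised the calls on the whole array, with 192 of 960 regions (20.0%) passing adjustment, against 1 without weights.

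At the 15.4 Mb locus the mean ratio was -0.10, -0.07, -0.22 and 0.26 in high-gain heifers 1 to 4, and -0.04, 0.10, 0.14 and 0.16 in low-gain heifers 5 to 8. Of all 8 arrays, high-gain heifer 4 was the highest and high-gain heifer 3 the lowest, so the high-gain values enclosed those of the low-gain group. The groups differed by -0.12, with SE 0.13 and a 95% interval of -0.40 to 0.15 (limma, adjusted p = 0.609). It was -0.11 within slide row 1 and -0.13 within row 2, -0.060 without high-gain heifer 3 and -0.22 without high-gain heifer 4. Over probes above background in the input or in both channels it was -0.039 and -0.070, and with slide column as a block -0.025.

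The 125.3 Mb locus had -0.08, 0.12, -0.12 and 0.15 in high-gain heifers 1 to 4, and -0.08, 0.08, 0.08 and -0.13 in low-gain heifers 5 to 8. Both groups lay on both sides of the median probe. Its groups differed by 0.03, with SE 0.12 and a 95% interval of -0.23 to 0.28 (limma, adjusted p = 0.920). The direction of so small a difference turned under 6 of 23 other settings, and its value ranged between -0.033 and 0.13. On the whole array 0 of 97 loci (0%) passed the adjusted test and 14 (14.4%) had an unadjusted p under 0.05, against 0 of the 3 on chromosome 3. The mean over all chromosome 3 probes was -0.06, 0.09, -0.20 and -0.10 in high-gain heifers, against -0.07, -0.19, -0.08 and -0.23 in low-gain heifers. High-gain heifer 2 was the only array above 0, and the difference of 0.07 had an exact permutation p of 0.429 (two-sided; smallest possible 0.0286). It was 0.14 within slide row 1 and 0.0019 within row 2. Leaving out high-gain heifer 2, high-gain heifer 3 or low-gain heifer 8 gave 0.020, 0.12 and 0.044, normexp gave 0.18, and the filters on probes above background in the input or in both channels gave 0.26 each.

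Along the loci, single probes varied far more than the locus means. Probe levels over both groups ranged between -3.58 and 1.24 in the 15.4 Mb locus, between -2.42 and 0.95 in the 85.6 Mb locus and between -2.25 and 1.31 in the 125.3 Mb locus. The lowest was the probe at chr3:15422245-15422290, picked after its values were seen. It read -3.82, -3.82, -3.55 and -3.83 in high-gain heifers, against -3.87, -2.93, -3.24 and -3.57 in low-gain heifers, so it was depleted on every array, and its input signal was among the brightest 10% of the array. Neighbouring probes at most 500 bp apart (144 pairs) correlated within an array at -0.09 to 0.28, so a probe told little of the next.

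**Figure D2:**
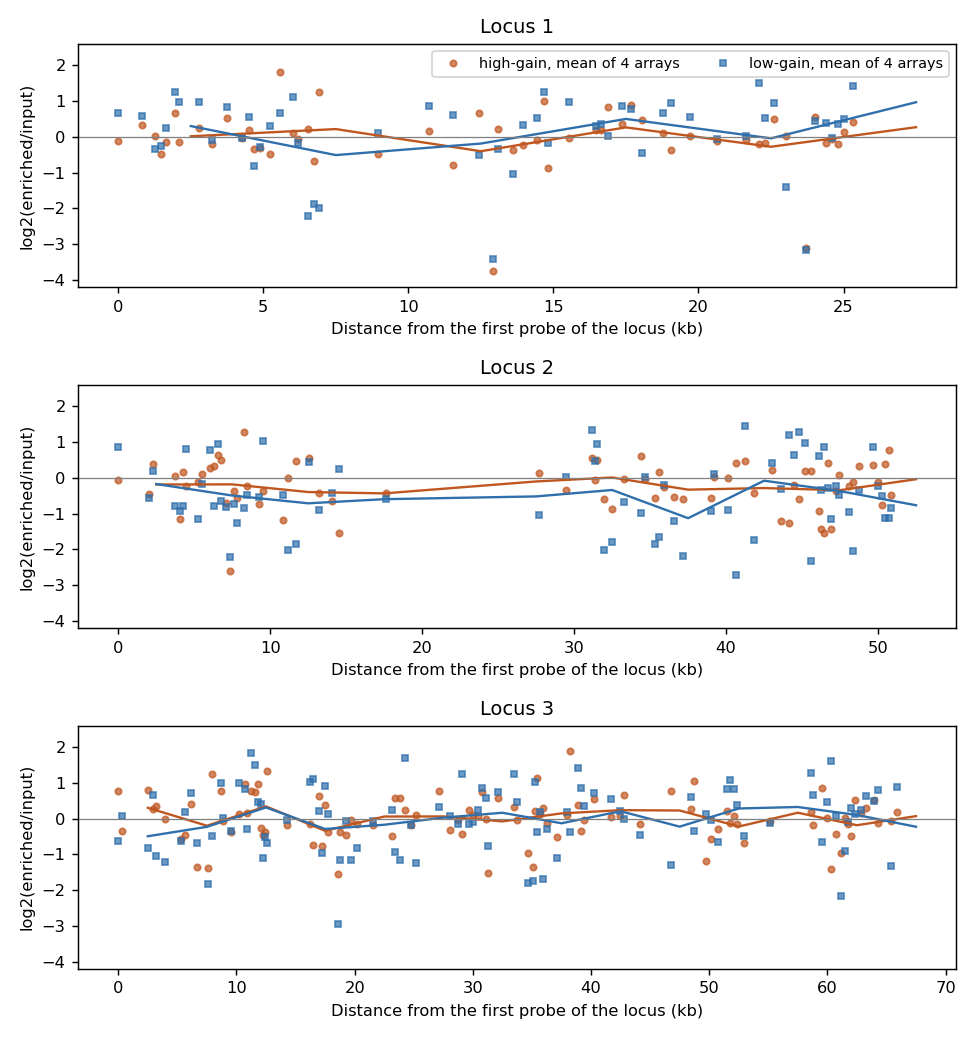
Mean log2(enriched/input) of each probe over 4 high-gain arrays (circles) and 4 low-gain arrays (squares) against its distance from the first probe of the locus in kb, with lines joining the means of 5 kb bins. Single probes scatter by several log2 units, while the bin means of both groups stay mostly within 1 of the median probe.

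Joined where starts lay no more than 1000 bp apart, and kept where 3 or more probes joined, 214 of the 234 probes formed 18 regions, and 20 probes fell in none. In the 85.6 Mb locus all 6 regions had a level below 0, between -0.66 and -0.19. In the 15.4 Mb locus 1 of 3 regions was below 0, with levels between -0.03 and 0.06, and in the 125.3 Mb locus 4 of 9, with levels between -0.33 and 0.26. Only 1 of the 18 regions (5.56%) differed from 0 past adjustment, against 124 of 960 (12.9%) on the array.

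That region is chr3:85623260-85626944, with 7 probes in the 85.6 Mb locus. It had -0.08, -0.12, -0.62 and -0.77 in high-gain heifers 1 to 4, and 0.15, -1.01, -0.97 and -1.02 in low-gain heifers 5 to 8. Low-gain heifer 5 was the only array above 0 and lay far from the other low-gain arrays. The level over both groups was -0.56 (limma against 0, adjusted p = 0.0359). The call was lost without any single one of high-gain heifers 3 and 4 and low-gain heifers 6, 7 and 8 (limma adjusted p = 0.0812 to 0.101), within slide row 1 (level -0.27, limma adjusted p = 0.681; row 2, level -0.85), with the authors' values (-0.37, 0.115), with arrays scaled to a common spread (-0.47, 0.0595), with slide column as a block (-0.56, 0.0571) and without the brightest 10% of input probes (level -0.44, limma adjusted p = 0.0824).

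The other regions at the low end were chr3:85646785-85649566, with a level of -0.66 (limma, adjusted p = 0.0691), and chr3:85651364-85654298, with a level of -0.40 (limma, adjusted p = 0.0693). Over 20 alternatives the first kept a level below 0, between -1.05 and -0.27, and passed in 5 (normexp, loess, slide row 2, array weights and without low-gain heifer 5). The second lay between -0.72 and -0.21 and passed in 6 (normexp, authors' values, loess, both filters on dim probes and without high-gain heifer 1). At the high end were chr3:125337565-125338693 with 0.26, chr3:125323000-125328022 with 0.14 and chr3:125301113-125308507 with 0.09, none of which passed. The 3 lowest named regions all lay in the 85.6 Mb locus and the 3 highest in the 125.3 Mb locus. The 125.3 Mb locus holds 9 of the 18 regions, however, and its lowest region had a level of -0.33.

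Between the feeding groups, 3 of the 18 regions (16.7%) had an unadjusted p under 0.05, near the 14.5% of all 960 regions. Of these, 2 were higher in high-gain heifers (6.25% of all regions were) and 1 was lower (8.23% of all regions). After adjustment 0 of 18 passed (smallest adjusted p = 0.226, limma), and 1 of 960 on the array (0.104%). The median difference was 0.08 over the 18 regions and -0.03 over all 960. High-gain and low-gain arrays did not overlap at 1 of the 18 regions (5.56%), against 6.25% of all regions. That region was chr3:15420040-15430028, named after its values were seen. Its ratios were -0.06, -0.04, -0.05 and -0.12 in high-gain heifers, against 0.06, 0.39, 0.03 and 0.11 in low-gain heifers, a separation of narrow width (difference -0.22, limma, unadjusted p = 0.317).

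The smallest unadjusted p belonged to chr3:125298367-125299884, 4 probes near the start of the 125.3 Mb locus. The ratios were -0.15, 0.59, 0.25 and 0.70 in high-gain heifers 1 to 4, against -0.11, -1.28, -0.13 and -0.91 in low-gain heifers 5 to 8. High-gain heifers 2 to 4 were above every low-gain array, while high-gain heifer 1 lay just below low-gain heifers 5 and 7. The groups differed by 0.96 (SE 0.31; limma, unadjusted p = 0.00925, adjusted p = 0.226), and it was 0.92 within slide row 1, 1.00 within row 2 and 0.43 with normexp.

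The other region with a higher high-gain level at that threshold was chr3:85651364-85654298, 6 probes in the 85.6 Mb locus. It read 0.67, -0.08, -0.63 and -0.02 in high-gain heifers, against -0.60, -0.92, -0.65 and -0.97 in low-gain heifers. All low-gain arrays were low, and only high-gain heifer 3 reached into their range. The groups differed by 0.77 (SE 0.28; limma, unadjusted p = 0.0164, adjusted p = 0.258). It was 1.06 within slide row 1 and 0.49 within row 2, 1.45 under either filter on dim probes, 0.51 with the authors' values and 0.44 with normexp.

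Immediately before it, chr3:85646785-85649566 with 7 probes had the largest difference of the 18, 0.98 (SE 0.46; limma, unadjusted p = 0.0519, adjusted p = 0.334). Its ratios were 0.12, 0.31, -0.51 and -0.60 in high-gain heifers, against 0.21, -1.73, -0.78 and -2.32 in low-gain heifers. Low-gain heifer 5 sat among the high-gain arrays, and the other low-gain arrays sat below them all. Without low-gain heifer 8 the difference was 0.60, and with loess it was 0.43, smaller than the 0.90 of the region from 85651364 in that setting. In the 85.6 Mb locus as a whole, 5 of 6 regions had a positive difference, and the remaining one differed by -0.10.

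The region lower in high-gain heifers at unadjusted p under 0.05 was chr3:125345575-125348866, 8 probes in the 125.3 Mb locus. It read -0.27, -0.35, -0.42 and -0.32 in high-gain heifers, against -0.32, 0.16, 0.80 and 0.42 in low-gain heifers. The high-gain arrays were close together, and low-gain heifer 5 lay among them. The groups differed by -0.61 (SE 0.26; limma, unadjusted p = 0.0359, adjusted p = 0.299), and it was -0.23 within slide row 1, -0.99 within row 2 and -0.22 with normexp. The next lower regions were chr3:15430995-15434722, with a difference of -0.33, and chr3:125354413-125360195, with -0.27. Without high-gain heifer 1 there was 1 chromosome 3 region (5.56%) at unadjusted p under 0.05, against 10.5% of all regions. Without low-gain heifer 5 there were 5 (27.8%), against 29.1% of all regions, and after adjustment 0, against 25 on the array. With array weights 4 chromosome 3 regions (22.2%) passed adjustment, against 192 (20.0%) on the whole array.

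**Figure D3:**
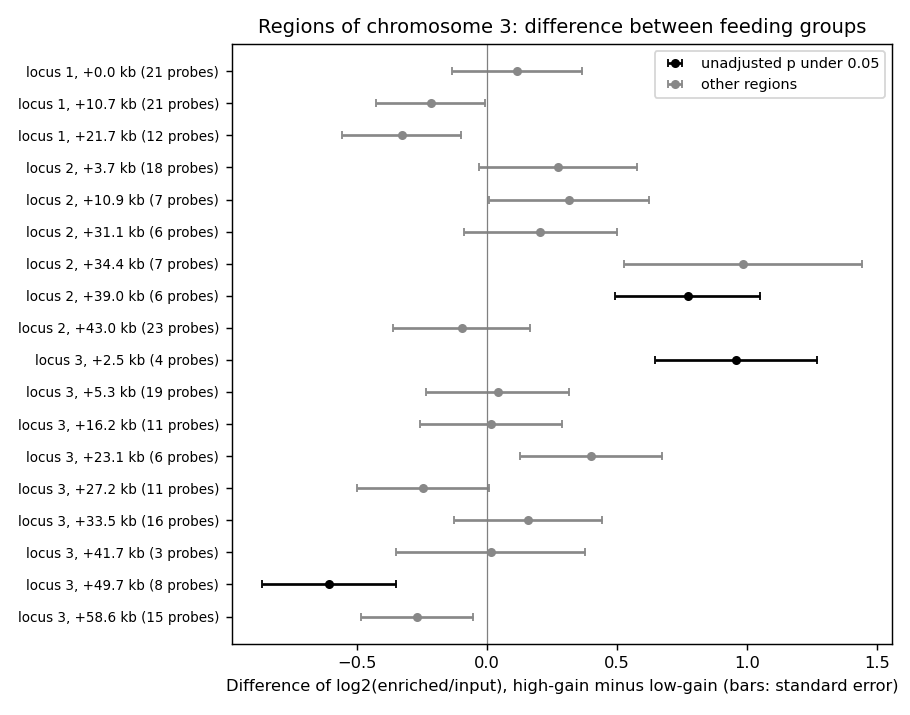
Difference of mean log2(enriched/input), high-gain minus low-gain, with its standard error, for the 18 regions of chromosome 3 in order along the 3 loci, each labelled with its distance from the start of the locus in kb. The 3 regions at unadjusted p under 0.05 are black, and differences run between -0.61 and 0.98.

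Of the 234 probes, 31 (13.2%) had an unadjusted p under 0.05, against 12.4% of all 10249 probes. In high-gain heifers 19 (8.12%) were higher and 12 (5.13%) lower, against 7.21% and 5.23% of all probes. None passed adjustment on chromosome 3 or anywhere on the array (smallest adjusted p on chromosome 3 = 0.249, limma). The groups did not overlap at 23 probes (9.83%), against 6.87% of all probes. Both criteria were met by 17 probes, and the share of all probes that met both was not counted. Without low-gain heifer 5, 48 chromosome 3 probes (20.5%) had an unadjusted p under 0.05, against 22.9% of all probes, and 7 (2.99%) passed adjustment, against 3.01% of all. Within slide row 1 the count was 14 (5.98%), against 6.25% of all probes, and within row 2 it was 31 (13.2%), against 12.1%. The 85.6 Mb locus held 9 of the higher and 5 of the lower probes (19.2% of its probes together), the 15.4 Mb locus 2 and 4 (10.9%), and the 125.3 Mb locus 8 and 3 (10.6%). No run of 3 or more neighbouring probes with 1 sign arose on chromosome 3, where the whole array held 13. Neighbouring pairs of one sign numbered 2, at 85623530 with 85624100 and at 125319211 with 125319663, all 4 probes higher in high-gain heifers. Such pairs were not counted on the rest of the array, so it cannot be said whether 2 is many.

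The smallest p was that of the probe at chr3:15416266-15416315 in the 15.4 Mb locus. It read -0.53, 1.64, 1.57 and 2.36 in high-gain heifers 1 to 4, against -2.09, -2.16, -1.76 and -1.94 in low-gain heifers 5 to 8. The low-gain arrays, heifer 5 included, lay together below all high-gain arrays. The fitted difference was 3.24 (limma, unadjusted p = 0.00037, adjusted p = 0.249). Its enriched signal was well above background on all 4 high-gain arrays and on 0 low-gain arrays, and its input signal on 3 high-gain and 4 low-gain arrays. The low-gain signals were then raised to the lowest signal well above background on each array, or left at their own where higher. With these, the mean ratio was 4.94-fold higher in high-gain heifers. That value is a lower bound as to the dim low-gain enriched signals only and takes no account of the spread between heifers. The high-gain array whose input was not well above background kept its own ratio. The value is therefore no bound as to that dim input signal. The probe just before it, at 15416098, differed by 1.23 (limma, unadjusted p = 0.112), and the one before that, at 15415891, by 2.46 (limma, unadjusted p = 0.016). At 15415891 the values were 0.36, 0.39, -1.20 and 1.39 in high-gain heifers, against 0.23, -3.09, -2.89 and -3.15 in low-gain heifers, so low-gain heifer 5 was above high-gain heifer 3. These neighbours were picked after their values were seen. The whole 21-probe region, of which these are the last 3 probes, differed by 0.12 (limma, unadjusted p = 0.653).

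The probe at chr3:85653006-85653066 is 1 of the 6 in the region from 85651364 described above, which differed by 0.77 as a whole. It had -0.52, 0.48, 1.43 and 0.30 in high-gain heifers, against -1.0, -3.60, -2.66 and -3.61 in low-gain heifers. Low-gain heifers 6 to 8 were far below every other array, and low-gain heifer 5 was closer to high-gain heifer 1 than to them. The difference was 3.14 (limma, unadjusted p = 0.000997, adjusted p = 0.249).

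The adjacent probes at chr3:85623530-85623590 and chr3:85624100-85624160 lie in the region from 85623260, the one whose level below 0 passed adjustment. They differed by 2.02 and 2.33, while the whole 7-probe region differed by 0.32 (limma, unadjusted p = 0.322). The first had -0.20, 0.07, 0.11 and 0.02 in high-gain heifers, against -0.21, -2.81, -2.03 and -3.04 in low-gain heifers. The second had 0.15, 0.41, 0.61 and 0.71 in high-gain heifers, against -0.13, -2.51, -1.88 and -2.92 in low-gain heifers. At both, the low values were those of low-gain heifers 6 to 8, and low-gain heifer 5 was within 0.3 of the lowest high-gain array. Both have input signals in the brightest 10% of the array.

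The remaining 4 of the 8 named probes that were higher in high-gain heifers started at 85620638, 125331732, 125319663 and 85646785, with differences of 2.14, 2.00, 1.73 and 1.61. At 6 of the 8, low-gain heifer 5 was the highest low-gain array. In the other direction, 6 probes met the rule. The one at chr3:15431430-15431482 had 0.48, -0.58, -0.77 and 0.07 in high-gain heifers, against 1.03, 1.28, 2.68 and 1.09 in low-gain heifers, where low-gain heifer 7 stood apart. Its difference was -1.72 (limma, unadjusted p = 0.00815), and that of the probe starting at 15428392 was -1.32. Both had an enriched signal well above background on all 8 arrays. The probes starting at 85657193, 125354413 and 85653661 had an enriched signal that was well above background on 0 of 8 arrays. The probe starting at 125356147 was above it on 1 low-gain array only. No difference or fold is given for these 4.

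**Figure D4:**
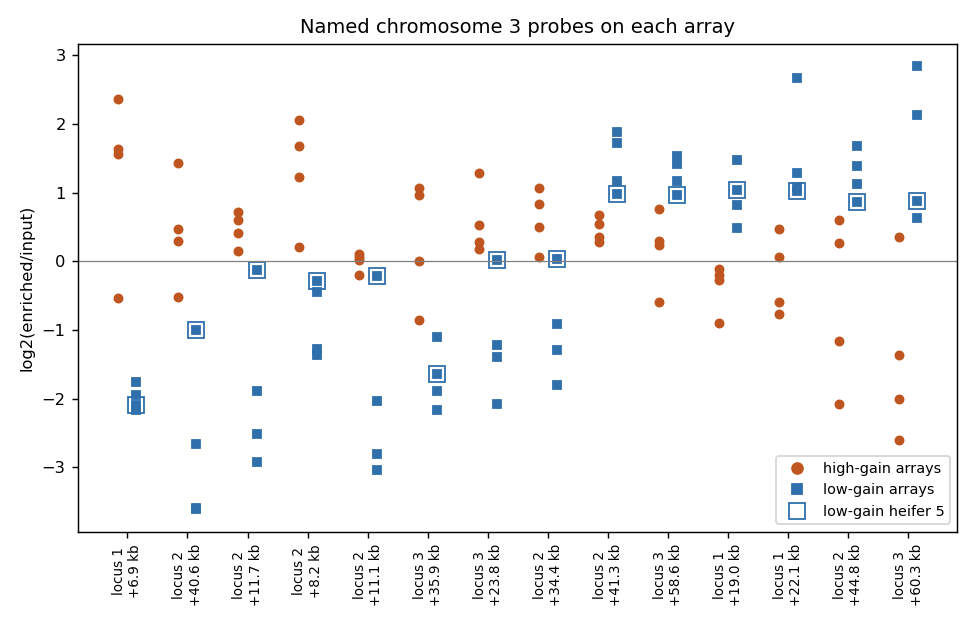
log2(enriched/input) of the 14 named chromosome 3 probes on each array, high-gain circles left and low-gain squares right, with low-gain heifer 5 ringed, ordered by difference and labelled by distance from the start of the locus in kb. The rule required groups that do not overlap. At 6 of the 8 probes on the left the ringed array is the low-gain value nearest the high-gain arrays. Of the 6 on the right, 4 have enriched signals at or near background, and their spread carries no size.

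The ratio moved with the input brightness of a probe, and did so differently on different arrays. The 10% of the array's probes with the brightest mean input signal include 20 of the 234 (8.55%), of which 8 lie in the 85.6 Mb locus, 3 in the 15.4 Mb locus and 9 in the 125.3 Mb locus. The mean ratio of these 20 was -0.15, 0.04, -0.68 and 0.33 in high-gain heifers 1 to 4, against -0.37, -0.93, -0.51 and -1.56 in low-gain heifers 5 to 8. The groups overlapped, with a mean of -0.12 ± 0.43 on the high-gain arrays and -0.84 ± 0.54 on the low-gain arrays (SD, n = 4 each). The brightest 10% elsewhere on the array averaged -0.02 on high-gain arrays and -0.69 on low-gain arrays. In the dimmest 10% of input, with 33 chromosome 3 probes, the mean ratio was 0.30, 0.22, 0.41 and -0.54 in high-gain heifers, against 0.47, 0.63, 0.85 and 1.15 in low-gain heifers, each low-gain array above every high-gain array. Elsewhere on the array the dimmest 10% averaged 0.13 on high-gain arrays and 0.93 on low-gain arrays, also without overlap. Input was well above background at only 76.1% to 91.5% of the chromosome 3 probes of an array. Ratios of the dimmest probes can therefore rest on signals near background, and their separation carries no size. Across the 234 probes, Spearman's rho of ratio and input was -0.18, -0.09, -0.22 and 0.08 in high-gain heifers, against -0.20, -0.34, -0.45 and -0.64 in low-gain heifers. The input signal enters both measures, which can by itself give a negative rho.

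Of the 20 bright chromosome 3 probes, 6 had an unadjusted p under 0.05 with a positive difference and 0 with a negative one, while 233 and 33 of 1025 did so on the whole array. Of the 33 dim probes, 0 had a positive and 5 a negative difference at that threshold, while 0 and 211 of 1025 did so on the whole array. In the 85.6 Mb locus the 8 bright probes averaged -0.06, 0.10, -0.25 and 0.49 in high-gain heifers, against 0.04, -2.04, -1.03 and -1.22 in low-gain heifers. Without the brightest 10%, an alternative chosen after seeing the data, the difference of the 85.6 Mb locus was 0.14 and its level -0.34 (limma against 0, adjusted p = 0.0456). The region from 85646785, which holds 2 bright probes, then differed by 0.76. The regions from 125298367 and 85651364 hold no bright probe, and their input signals alone differed by -0.42 and -0.36. The part of input brightness in the region and probe differences was not tested.

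**Figure D5:**
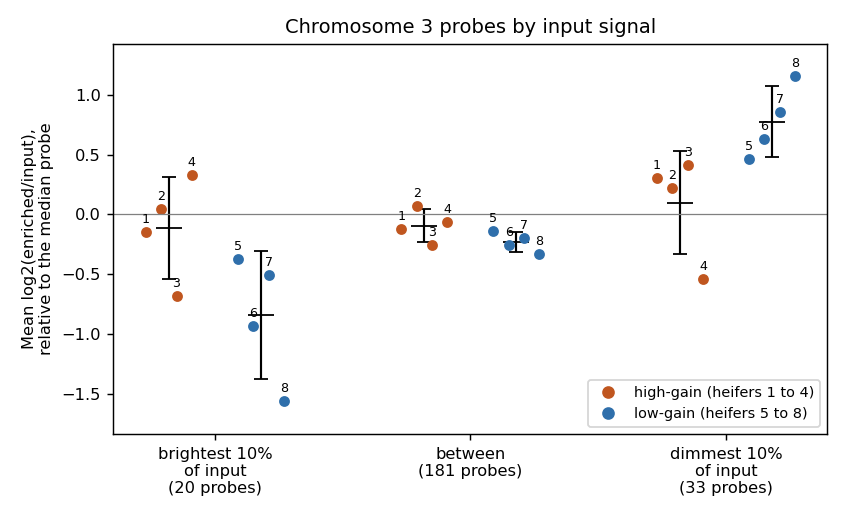
Mean log2(enriched/input) of the chromosome 3 probes in the brightest 10% of input signal (20 probes), the dimmest 10% (33) and between (181), high-gain arrays left and low-gain right, with heifer numbers, means and SD. Low-gain arrays reach -1.56 at bright probes and lie between 0.47 and 1.15 at dim ones, above all high-gain arrays there. Signals of the dim probes can be near background, so that separation carries no size.

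The pair of probes outside the loci disagreed. The probe at 85693522 had 0.60, 1.18, 2.86 and -2.03 in high-gain heifers, against 1.00, -2.13, -0.53 and -2.11 in low-gain heifers. The probe at 85696179 had 0.03, -1.30, 1.99 and 0.99 in high-gain heifers, against -1.25, 0.38, -0.35 and -2.04 in low-gain heifers. High-gain heifers 2 and 4 changed sign between them, the groups overlapped at both, and neither passed (limma, unadjusted p = 0.162 and 0.141).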

How the data were processed

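Per the file headers, the deposited intensity values are processed signals from Agilent Feature Extraction 10.7.1.1, background-subtracted and linearly dye-normalised. The authors' deposited log2 ratios, neither centred nor dye-normalised, served as an alternative. Per the labels, the red dye marked enriched and the green dye input DNA; no dye was swapped. log2(red/green) was taken for non-control probes without outlier flags and centred on each array's median. limma 3.58.1 in R 4.3.3 (lmFit, eBayes, two-sided, Benjamini-Hochberg, threshold 0.05) was run over all 97 loci (at least 10 probes), 960 regions and 10249 probes. The code was also run on simulated data with independent probes and the same spread on every array. The real arrays differ in spread, so the simulation does not show how the tests behave on them. Single values per array had exact permutation tests; the comparison of loci within arrays was added after the data were seen.

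Named were every locus, regions at unadjusted p under 0.05, the 3 largest differences each way, the 3 highest and lowest levels, and up to 8 separated probes per direction. Members, lists and tests were chosen with earlier results of these data known. Alternatives covered background correction, normalisation, filters, each channel, slide position, array weights and each heifer left out; normexp (offset 50) used median signals. All arrays shared 1 slide and 1 scan day. Each heifer is a separate animal.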

Additional observations from a re-analysis of the deposited data

Results flagged for a closer look

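Of 66 groups of 4 values examined, 3 held an array far from the other 3 of its group; chance alone flags about 1 in 20 groups. In the region from 85623260, low-gain heifer 5 had a log2 ratio of 0.15, and the other low-gain arrays lay between -1.02 and -0.97. At the probe starting at 15431430, low-gain heifer 7 had 2.68, and the other low-gain arrays lay between 1.03 and 1.28. In the difference of the 125.3 Mb locus minus the 15.4 Mb locus, low-gain heifer 8 had -0.29, and the other low-gain arrays lay between -0.06 and -0.02.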

How the results depend on the processing

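No paired analysis was possible because the groups share no replicate numbers. The level of the 85.6 Mb locus stayed below 0 under all 23 alternatives and lost its call within slide row 1 (-0.17), in the enriched channel alone (-0.076) and the input channel alone (-0.0077), and when high-gain heifer 3 or low-gain heifer 6 or 8 was left out (each heifer left out, -0.42 to -0.27). Its difference passed with array weights (0.52) and turned within slide row 2 (-0.015) and in the input alone (-0.17). The 15.4 Mb difference turned with normexp (0.031). The 125.3 Mb difference turned in the input alone (-0.019), with array weights (-0.033), without the brightest 10% of input probes (-0.0038) and when high-gain heifer 2 or 4 or low-gain heifer 8 was left out (range -0.016 to 0.073). The chromosome 3 mean difference turned in the input alone (-0.061). A channel alone gives a brightness and not a ratio, so its sign bears on no level, that of the 85.6 Mb locus included. The input is the denominator, so an input difference of opposite sign adds to the difference of the ratio.

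The 15.4 Mb level, near 0, turned with normexp (-0.017), common spread (-0.015), the input filter (-0.039), the enriched channel alone (-0.039), the input alone (-0.35, a brightness rather than a ratio), within row 1 (-0.026) and without high-gain heifer 4 (range -0.019 to 0.060). The 125.3 Mb level turned with normexp (-0.051), common spread (-0.0080), the input filter (-0.057), the input alone (-0.24), within row 2 (-0.0056), with array weights (-0.017) and with high-gain heifer 2 or 4 or low-gain heifer 6 or 7 left out (range -0.021 to 0.024). Region levels turned at 125323000 with loess (-0.041), at 125301113 with the input filter (-0.070) and without high-gain heifer 4 (range -0.016 to 0.15), and at 125337565 within row 1 (-0.056). The region from 125354413 turned with normexp (0.10). In the input alone the regions from 85646785, 85651364, 125298367, 125345575 and 125354413 differed by -0.22, -0.36, -0.42, 0.20 and 0.087.

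At unadjusted p under 0.05 there were 3 of 18 chromosome 3 regions, against 139 of 960 on the whole array, whose counts follow in brackets. Normexp gave 7 (194), the enriched channel alone 0 (93), the input channel alone 0 (35) and array weights 6 (364). With a heifer left out there were 1 to 5 (76 to 279). A gap of 2000 bp, which forms other regions, gave 0, and its count on the whole array is not given here. Of the 234 chromosome 3 probes 31 were under that threshold, against 1275 of 10249 on the whole array. Loess gave 20 (1066), the enriched channel alone 18 (772) and the input channel alone 9 (513). Row 1 gave 14 (641), array weights 63 (3248) and a heifer left out 22 to 48 (745 to 2342). At p under 0.01 there were 12 (327). The 48 were without low-gain heifer 5, when 7 probes passed adjustment. Array weights gave 4 adjusted regions and 7 adjusted probes on chromosome 3, against 192 and 351 on the whole array. Over the whole array the alternatives gave 35 to 364 regions, against 139, at the unadjusted threshold. They gave 327 to 3248 probes, against 1275, where the 327 are at p under 0.01. After adjustment they gave 0 to 192 regions, against 1, and 0 to 351 probes, against 0. The causes were not tested. Dim signals limit the dim probes: 34 of 234 never rose well above background in the enriched channel.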
